A study of Ovis aries with 6 samples.

Results

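The cells described here are a range of sheep granulosa cells (GCs) that carried RNA of HTRA3, JPH1 or both, chosen by measured UMI counts of each cell. They came from single-cell libraries of 1 ovary from each of 6 Hu ewes in estrus: 3 ewes with a high litter size (HLS, at least 3 lambs) and 3 with a low litter size (LLS, fewer than 2 lambs). Hu sheep are a prolific breed, no ewe was treated, and each whole ovary was digested, so that follicles of all sizes were mixed. Ages of the ewes are not in the labels, each ewe gave 1 library, and the whole libraries held 43329214 to 75549906 UMI. In this droplet assay a unique molecular identifier (UMI) marks each captured RNA molecule, and a level below is the number of UMI of a gene per 10000 UMI of the summed cells of 1 ewe. A barcode was taken as a GC where CDH2, FST, INHA and FSHR together had at least 4 UMI and more UMI than PECAM1, KDR, PTPRC, PDGFRA and INSL3 together. A GC was kept where HTRA3 and JPH1 together had at least 3 UMI, CYP19 had fewer than 3 UMI and at most 2 of 6 cell cycle genes were detected. Of 52290 barcodes, 38465 passed the limits on depth and mitochondrial share, 2026 were GCs and 405 of these were kept, which was 19.99% of the GCs. The other GCs were 1346 cells without the required HTRA3 and JPH1 UMI, 255 cycling cells and 20 cells with CYP19.

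Mural GCs line the wall of an antral follicle, while cumulus cells surround the oocyte. They are known for converting androgen from theca cells to estrogen under follicle-stimulating hormone (FSH), for secreting inhibin and matrix proteins, and for turning to progesterone synthesis after the surge of luteinizing hormone. Of the genes given as marks of these cells, HTRA3 encodes a secreted serine protease, JPH1 a junctophilin that tethers the plasma membrane to internal calcium stores, IGFBP5 a binding protein of insulin-like growth factors, RUNX2 a transcription factor and PLIN2 a coat protein of lipid droplets.

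HLS replicates 1, 2 and 3 gave 53, 28 and 129 kept cells, and LLS replicates 1, 2 and 3 gave 25, 124 and 46. The summed UMI of these cells came to 1132050, 474771 and 2124576 for HLS and to 348623, 2100480 and 845229 for LLS, so that LLS replicate 1 had the least depth. The median kept cell held between 11279 and 20201 UMI in the 6 ewes, against 6446 to 14427 UMI in the other GCs, and was the deeper one in every ewe. The rule counts raw UMI and takes no account of depth. Any 2 libraries shared 13 to 28 cell barcodes, and no kept cell had the barcode of a kept cell of another ewe.

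A group of 12 kept cells, all from LLS replicate 3, stood apart and went against the name of mural-type cells. Each held at least 405 and at most 1869 UMI of OXT, the precursor of oxytocin, whereas the next highest kept cell of any ewe held 46. Their OXT level was 412 per 10000 UMI, against 0.71 in the 34 other kept cells of this ewe. HSD3B1, an enzyme of progesterone synthesis, stood at 19.4 against 0.55, and PTGFR, the receptor of prostaglandin F2α, at 6.38 against 0.92. Their HTRA3 level was 0.14 against 6.64 and their IGFBP5 level 0.028 against 22.1, and FSHR, the FSH receptor, had 0 UMI of 354260, which allows a level of up to 0.0847 (3 counts, counting error only). JPH1 had at least 3 UMI in each of the 12, of which 9 had no HTRA3 UMI, and stood at 3.47 per 10000 against 1.79. STAR and LHCGR, which are also on the list of luteal markers, had 1 and 2 UMI in these 12 cells. No other kept cell reached 100 OXT UMI, while 63 barcodes of LLS replicate 3 outside the GC gate did. Values that rest mainly on these cells are given with and without them, and 393 cells remained without them.

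**Figure D1:**
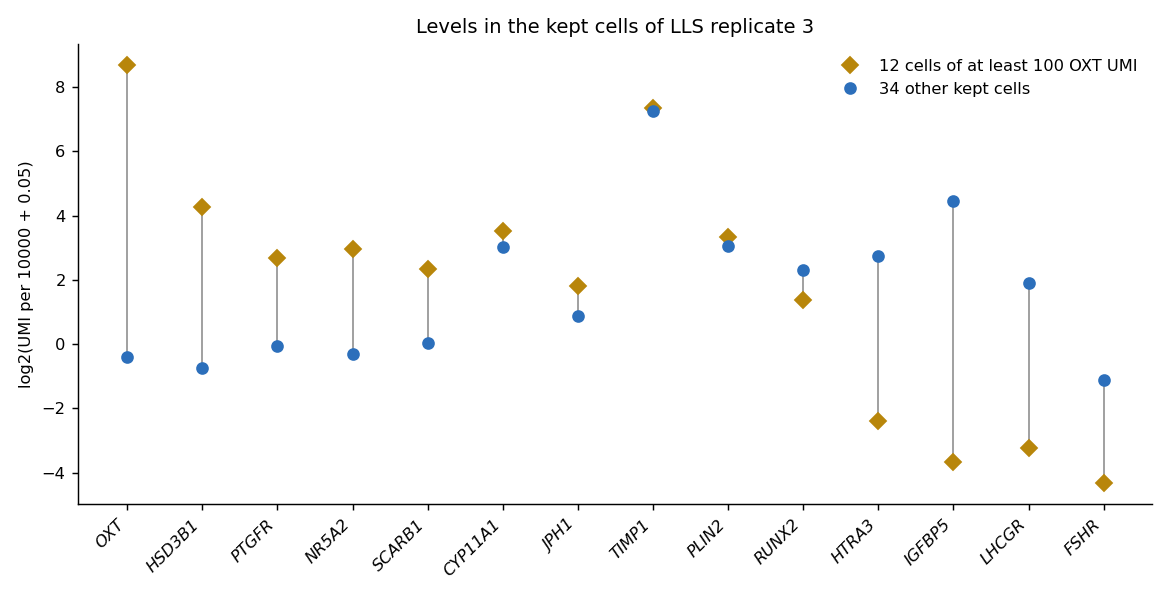
Levels of 14 genes on a log2 scale (UMI per 10000 plus 0.05) in the kept cells of LLS replicate 3: diamonds are the 12 cells of at least 100 OXT UMI, circles the 34 others, each point a sum over cells. OXT, HSD3B1 and PTGFR lie higher in the 12 cells and HTRA3, IGFBP5 and FSHR (listed at 0 UMI) lower, while TIMP1 lies near the same height.

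Other libraries also stood apart. In the kept cells of LLS replicate 2, MX1 and IFI6, both induced by interferon, were at 7.91 and 9.77 per 10000, where the other 5 ewes lay at or below 0.96 and 2.78. Without the 12 OXT cells IFI6 came to 4.68 in LLS replicate 3. HLS replicate 1 had the highest levels of the ferritin chains FTH1 (14.1) and FTL (11.9) and the lowest of HTRA3 (3.07) and JPH1 (0.63). In LLS replicate 1 the other GCs, not the kept cells, held high TAGLN (13.1 against 2.09 per 10000) and ACTA2 (6.71 against 0.23), which encode contractile proteins of smooth muscle.

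The range had no gap at its lower edge. The sum of HTRA3 and JPH1 was 3 UMI in 46 kept cells and 4 in 52, while 87 cells just outside had 2, 176 had 1 and 1083 had 0. HTRA3 and JPH1 were found together in 291 of the 405 kept cells, HTRA3 alone in 95 and JPH1 alone in 19. The 4 gate genes summed to the minimum of 4 UMI in 53 kept cells, with a median of 8 UMI against 9 in the other GCs. Without the 12 OXT cells, levels were taken in 3 steps of the score, as a mean ± SD of 6 ewes. TIMP1, an inhibitor of matrix metalloproteinases, stood at 106 ± 87.5 in the 97 cells of 3 to 4 UMI, at 148 ± 81.8 in the 132 cells of 5 to 9 UMI and at 209 ± 95.3 in the 164 cells of 10 or more. QSOX1, which forms disulfide bonds, stood at 1.45 ± 1.0, 3.93 ± 1.5 and 5.67 ± 1.86. IGFBP5 stood at 28.4 ± 14.3, 39.7 ± 16.3 and 43.8 ± 14.9, and RUNX2 at 6.81 ± 4.33, 6.59 ± 2.43 and 5.04 ± 0.82. The 87 cells just outside had 33.6 ± 25.8 for IGFBP5, 77.6 ± 57.6 for TIMP1 and 1.15 ± 0.82 for QSOX1, within 1 SD of the lowest step. MUSTN1, a muscle-type gene, was at 1.33 ± 0.74 in them against 4.15 ± 2.10 in the lowest step, RUNX2 at 4.18 ± 2.42 and NMB, the peptide neuromedin B, at 1.68 ± 1.56 against 0.75 ± 0.54. Median depth also climbed over the steps, from 13140 to 14841 and 18631 UMI per cell, and its part in these levels was not tested.

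The share of kept cells among all GCs asks whether the ewes of high and low litter size differed in these cells. It was 31.9%, 7.84% and 18.2% in HLS replicates 1, 2 and 3 and 15.2%, 34.3% and 17.3% in LLS replicates 1, 2 and 3. Both groups held a ewe above 30% and the ranges overlapped. The mean was 19.3% ± 12.1 (SD, n = 3) in HLS and 22.2% ± 10.5 (SD, n = 3) in LLS, with p = 0.80 in a two-sided exact permutation test of 20 regroupings, whose smallest p is 0.10. The direction turned without HLS replicate 2 (2.82 percentage points higher in HLS) or without LLS replicate 2 (3.09 points higher in HLS). With every cell thinned to 3000 UMI, cells with at least 1 UMI of HTRA3 or JPH1 made up 30.1%, 13.6% and 21.4% of GCs that were neither cycling nor CYP19 cells in HLS and 29.6%, 37.4% and 23.9% in LLS (p = 0.30, same exact test), and 107 shallower cells were left out. Fewer cells of a type and less RNA per cell cannot be told apart in such a share.

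**Figure D2:**
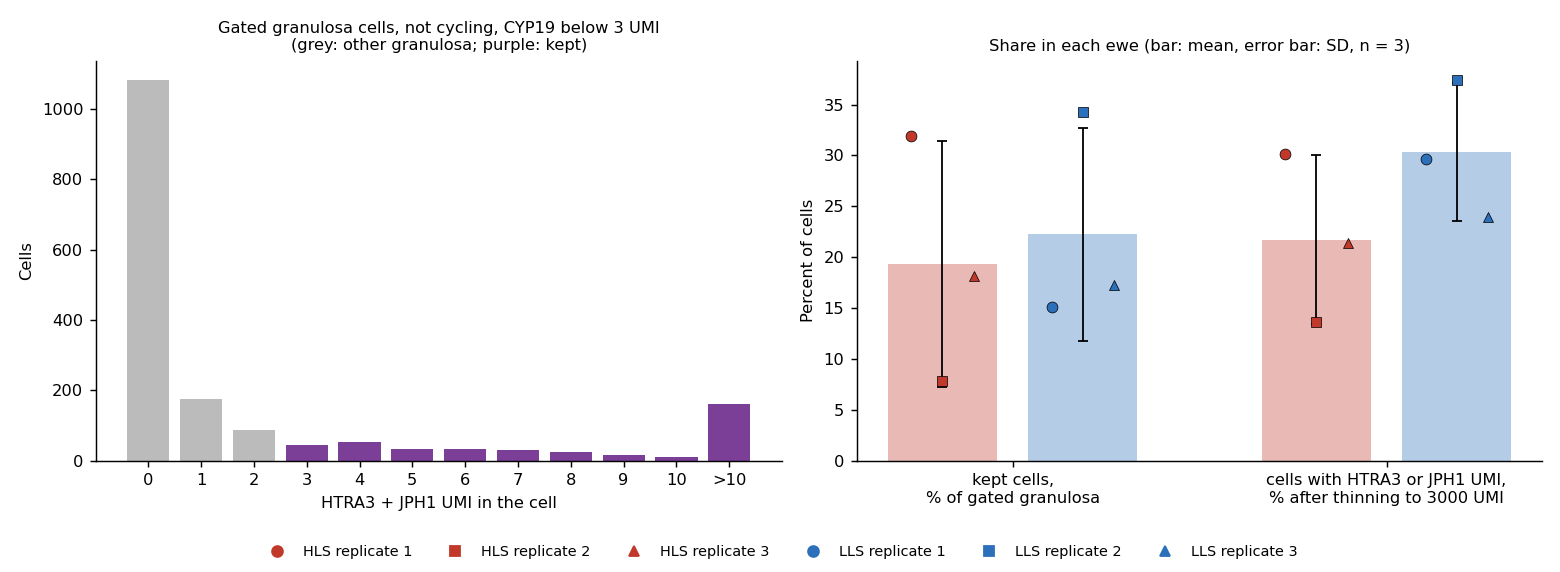
Left, number of gated granulosa cells, without the cycling and CYP19 cells, by their HTRA3 plus JPH1 UMI, from 1083 at 0 UMI to 160 above 10, with kept cells in purple. Right, the share of kept cells, and of cells with HTRA3 or JPH1 after thinning, in percent (points are ewes, bars the mean, error bars the SD, n = 3); HLS and LLS overlap in both.

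Kept cells and other GCs were compared within each ewe. The rule chose the cells from these same counts, so that what follows is a description without a test. Over 8478 genes that the rule did not use, with a mean level of at least 0.1 per 10000 UMI, 1458 (17.2%) were higher in the kept cells of 6 of 6 ewes and 842 (9.93%) were lower in 6 of 6. With cells thinned to 3000 UMI these counts were 737 and 544. The median log2 ratio over all 8478 genes was 0.081.

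The 3 marker genes that were not in the rule were higher in the kept cells of all 6 ewes. IGFBP5 was at 33.6, 36.5 and 50.9 per 10000 UMI in HLS replicates 1, 2 and 3 and at 45.2, 46.6 and 12.8 in LLS replicates 1, 2 and 3. In the other GCs it was at 22.4, 2.31 and 3.98 in HLS and at 12.04, 11.3 and 5.23 in LLS. LLS replicate 3 was low among the kept cells, and came to 22.1 without the 12 OXT cells, and HLS replicate 1 was high among the other GCs. RUNX2 had a median of 5.51 over the 6 ewes (3.90 to 7.80) against 2.14 (0.47 to 3.04), which did not overlap. PLIN2 had a median of 19.0 (8.99 to 31.0) against 4.56 (3.04 to 15.4). The median log2 ratio was 1.97 for IGFBP5, 1.77 for PLIN2 and 1.44 for RUNX2, and each was at least as large without the 12 cells.

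Per cell, at least 1 UMI of RUNX2 was found in 376 of 405 kept cells (92.8%), 36.2% of other GCs and 2.04% of barcodes led by the endothelial genes PECAM1 and KDR. After thinning to 3000 UMI these shares were 71.9%, 25.1% and 0.60%. IGFBP5 was found in 89.9%, 42.5% and 30.8%, and after thinning in 81.2%, 28.2% and 17.0%. The median depths were 16137, 10069 and 9720 UMI in the same order. The most in 1 endothelial-led barcode was 15 UMI for RUNX2 and 670 for IGFBP5, with a median of 0 UMI for both. The source of the IGFBP5 UMI in endothelial-led barcodes was not tested.

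**Figure D3:**
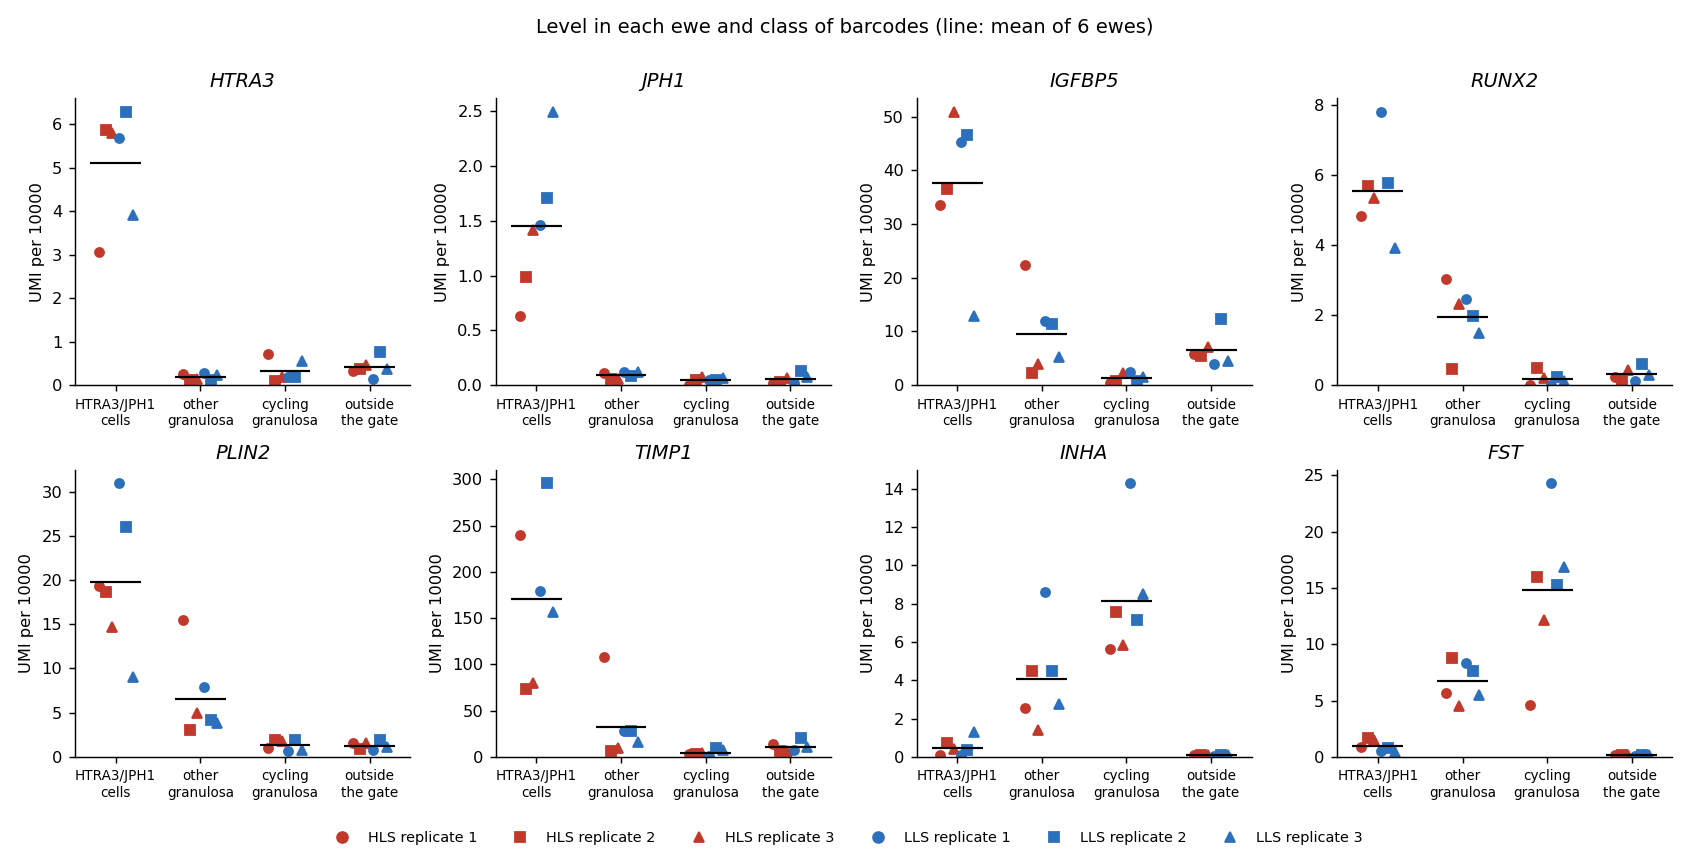
Level in UMI per 10000 of 8 genes in 4 classes of barcodes, 1 point per ewe (red HLS, blue LLS) and a line at the mean of 6 ewes. IGFBP5, RUNX2, PLIN2 and TIMP1 are higher in the kept cells of every ewe than in the other granulosa cells, and INHA and FST, used by the gate, are lower.

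Of the other marker genes of mural GCs, GJA4 (a connexin, a gap junction protein between GCs and oocyte) was at 0.96 ± 0.44 against 0.23 ± 0.21 (mean ± SD, n = 6) and CYP11A1 (the enzyme that starts steroid synthesis from cholesterol) at 4.28 ± 2.67 against 1.89 ± 1.47, both higher in 6 of 6 ewes. CITED2, a transcriptional coregulator, was higher in 5 of 6 and KRT18, a keratin, in 5 of 6. FSHR, which the gate counts, was at 0.83 ± 0.35 against 1.07 ± 0.22 and higher in 1 of 6 ewes. INHA, HSD17B1 and LHCGR, with values below, were lower in 6 of 6 ewes, and the gate counts INHA too. Not all values of the kept cells thus went with the name of mural-type cells. The study also lists 20 leading genes of its mural GCs, and 18 of them were outside the rule. All 18 were higher in 6 of 6 ewes, with a median log2 ratio of 1.99. This list was chosen on these same libraries and is not independent evidence.

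Genes with the largest ratios are given by kind of protein, and those named were higher in 6 of 6 ewes with and without the 12 OXT cells. Of 20 measured proteases, inhibitors and basal lamina genes outside the rule 4 were higher and 4 lower in 6 of 6 ewes. TIMP1 was at 171 ± 87.7 per 10000 UMI against 32.7 ± 38.0 (median fold 8.79), with 240, 73.7 and 79.6 in HLS and 179, 296 and 156 in LLS. HLS replicate 1 had the smallest log2 ratio of TIMP1 (1.15), since its other GCs stood at 108. SERPINA1 (α1-antitrypsin) was at 3.39 ± 2.25 against 0.60 ± 0.65. Among genes better known from striated muscle, XIRP1, an actin-binding protein, was at 1.81 ± 0.93 against 0.16 ± 0.057 (median fold 9.53) and MUSTN1 at 4.48 ± 1.87 against 0.76 ± 0.55. Of 14 measured muscle-type genes, however, 2 were higher and 2 lower in 6 of 6 ewes, and TNNI3, a troponin, was at 0.56 against 2.94.

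Of 16 measured antioxidant and selenium genes 4 were higher in 6 of 6 ewes and 3 were lower (GPX1, SOD1 and GSTA1). SELENOP, which carries selenium, was at 15.3 ± 5.10 against 3.92 ± 2.53, and QSOX1 at 3.84 ± 1.53 against 0.62 ± 0.50. PCSK1, a convertase of prohormones, was at 1.87 ± 0.68 against 0.25 ± 0.10, with log2 ratios close together over the ewes (from 2.4 to 3.05). S100A11, a calcium-binding protein, was at 13.2 ± 4.34 against 2.30 ± 1.11. C14H19orf33, ANKH (a pyrophosphate transporter), TSPAN15 (a tetraspanin), MAP1LC3C (an autophagy protein), CAPG (which caps actin filaments) and MSMB had median log2 ratios between 2.38 and 4.04.

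The genes with the smallest ratios included hormones, a steroid enzyme and a cyclin. NMB was at 0.38, 0.21 and 0.74 per 10000 UMI in HLS and at 0.46, 0.50 and 0.34 in LLS, against 2.08 to 8.82 in the other GCs, without overlap. AMH, the hormone of small growing follicles, was at 0.10 ± 0.082 against 1.10 ± 0.67. HSD17B1, which makes estradiol from estrone, was at 0.59 ± 0.44 against 2.76 ± 1.23. CCND2, a cyclin of GC proliferation, was at 0.21 ± 0.13 against 0.93 ± 0.35, and ANGPT2, an angiopoietin, at 0.29 ± 0.21 against 1.95 ± 0.995. IL17RB (a cytokine receptor), GRB14 (an adaptor of the insulin receptor), TRIB2 (a pseudokinase) and GCLC (an enzyme of glutathione synthesis) completed the 10 lowest, with median log2 ratios between -3.15 and -1.98. INHA and FST were also lower in 6 of 6 ewes (median log2 ratios -3.04 and -2.93), but the gate counts both.

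**Figure D4:**
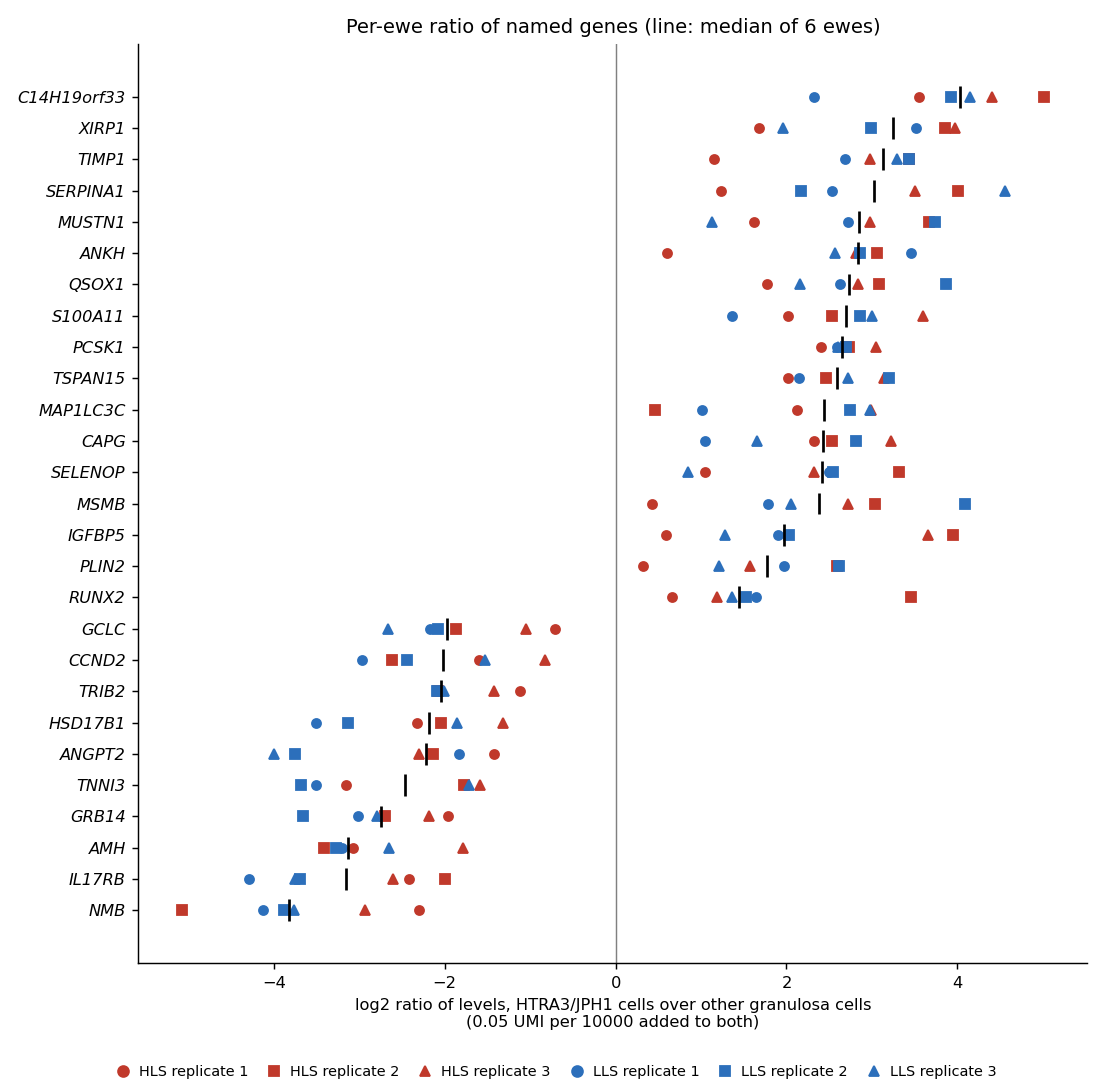
log2 ratio of the level in kept cells over other granulosa cells, 1 point per ewe, for IGFBP5, RUNX2, PLIN2 and genes with the largest and smallest median ratios (line at the median). All 6 points of each gene lie on one side of 0.

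Lists of genes by role are given as counts beside the 17.2% and 9.93% of all genes. Of 5 measured early GC genes none was higher and 4 were lower in 6 of 6 ewes, among them WT1 (0.067 against 0.50), a transcription factor of early follicles. Of 6 measured cumulus genes 3 were lower in 6 of 6, AMH, IGFBP2 (5.43 against 15.6) and VCAN (1.19 against 3.30), and none was higher. HTRA1, a protease related to HTRA3, was higher in 5 of 6 (1.49 against 0.33). Among receptors, GHR, the growth hormone receptor, was higher in 6 of 6 ewes (0.48 against 0.26). LHCGR, which binds luteinizing hormone, was lower in 6 of 6 (0.70 ± 0.84 against 1.93 ± 2.00), with a UMI in 38 of 405 kept cells. Without the 12 OXT cells LHCGR stood at 2.50 ± 3.68 in cells of 3 to 4 UMI of HTRA3 and JPH1. It was 0.35 ± 0.39 at 5 to 9 UMI, 0.098 ± 0.21 at 10 or more and 2.21 ± 3.00 in the 87 cells just outside. LLS replicate 3 was at 3.73 without the OXT cells, against 0.062 to 1.18 in the other ewes. For steroid synthesis, 2 of 10 measured genes were higher in 6 of 6 (CYP11A1 and the cholesterol transporter TSPO) and 2 lower (HSD17B1 and the electron donor FDX1).

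Of 17 measured genes of cholesterol synthesis and uptake, 5 were lower in 6 of 6 ewes and 1 was higher, with a median log2 ratio of -0.67. HMGCS1, an early enzyme of the pathway, was at 0.54 against 1.15 and MSMO1, a late one, at 2.21 against 4.16, while NPC2, which moves cholesterol out of lysosomes, was at 2.4 against 0.74. Of 16 glycolysis genes 4 were higher in 6 of 6 and none lower, SLC2A1 (0.90 against 0.40), HK2 (0.78 against 0.27), PKM (7.57 against 3.16) and PGAM1 (4.68 against 2.02). Of 11 immediate early genes 7 were lower in 6 of 6, with FOS at 10.9 against 32.8 and JUN at 13.6 against 28.6, and FOSL2 was higher. Of 74 ribosomal protein genes 68 were lower in 6 of 6 (median log2 ratio -0.55).

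Of 14 measured genes of atresia and cell death, 4 were higher in 6 of 6 ewes and none lower: BCL2L11 (1.63 against 0.73) and PMAIP1 (0.76 against 0.32), both promoters of apoptosis, BCL2 (0.34 against 0.16), which inhibits it, and the kinase SGK1 (0.80 against 0.55). In the BMP pathway 3 of 12 were higher in 6 of 6, the receptor BMPR1B (1.41 against 0.78) and the mediators SMAD9 (0.27 against 0.090) and SMAD7 (1.18 against 0.46, an inhibitory one), and 1 was lower. In the IGF system IGFBP5 and the receptor IGF2R were higher in 6 of 6, and IGFBP2 and IGF2 lower. KITLG, the ligand by which GCs signal to the oocyte, was at 1.99 against 0.98 and NRP2, a neuropilin, at 3.41 against 1.05. Among 12 iron genes the ferritin chains FTH1 (6.81 against 4.66) and FTL (5.43 against 3.57) were higher in 6 of 6 and 3 genes were lower.

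Markers of other cell types were present at low to moderate levels in the kept cells. The 8 endothelial markers summed to 0.68 per 10000 UMI (0.43 to 1.05 over the ewes) against 2.04 in the other GCs and 23.7 outside the gate, and all but CD34 had means under 0.1. The 7 immune markers summed to 0.091 and all had means under 0.1, the highest being PTPRC at 0.040, and without the 12 OXT cells the sum was 0.059 and CD69 was highest at 0.019. The 7 stromal markers summed to 19.6 (8.66 to 31.7) against 23.8 in the other GCs and 61.0 outside the gate, led by DCN at 7.40. Of 5 measured stromal genes outside the rule 1, LUM (3.54 against 2.28), was higher than in the other GCs in 6 of 6 ewes, the other 4 were mixed and the median log2 ratio was -0.61, and PDGFRA, which the gate sets against the GC genes, had a UMI in 51.4% of kept cells, 15.5% of other GCs and 4.30% of endothelial-led barcodes, and after thinning in 18.5%, 6.30% and 1.61%. The stromal sum was higher in kept cells than in other GCs in HLS replicate 2 (23.4 against 12.8) and HLS replicate 3 (31.7 against 19.7), and in LLS replicate 3 without the 12 OXT cells (37.3 against 26.4, and 22.1 with them). The part of stromal RNA in the results was not tested. The 5 luteal markers summed to between 1.33 and 2.38 in 5 ewes and to 187 in LLS replicate 3, or 6.03 there without the 12 OXT cells, led by LHCGR. The 6 theca markers summed to 3.25 to 4.55 in 5 ewes and to 21.5 in LLS replicate 3, or 14.6 there without the 12 OXT cells. In the latter CYP11A1 was at 8.13, LHCGR at 3.73 and CYP17A1 at 1.93 (95 UMI). CYP17A1 had 9, 10 and 16 UMI in HLS replicates 1, 2 and 3 and 0 and 5 in LLS replicates 1 and 2. The part of theca RNA in LLS replicate 3 was not tested. The 5 perivascular markers summed to 1.16, led by ACTA2 at 0.71, the 4 epithelial ones to 0.43, led by UPK3B at 0.28, and the 6 cell cycle genes, which the rule limits, to 0.25.

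HLS and LLS ewes were then compared within the kept cells, with UMI summed per ewe and the ewe as the replicate. Genes of the rule, among them HTRA3, JPH1 and the 4 GC gate genes, stayed in the counts of genes tested. The same holds for the interaction below, and no result is read from these genes. Of 8384 genes tested, none passed an adjusted p of 0.05 (0%) in the quasi-likelihood test of edgeR, 384 (4.58%) had an unadjusted p under 0.05 and the smallest adjusted p was 0.355. DESeq2 on the same sums called 6 genes, DUT and TAGLN higher and GPX3, SCARB1, SERPINA14 and MRO lower in HLS. Without the 12 OXT cells edgeR again called none of 7798 genes, with a smallest adjusted p of 0.0946.

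The genes with the lowest edgeR p values are therefore given as not passing in edgeR, though DESeq2 called GPX3, SERPINA14, DUT and TAGLN among them. GPX3, a secreted glutathione peroxidase, was at 0.42, 0.25 and 0.16 per 10000 UMI in HLS and at 1.35, 2.31 and 1.47 in LLS. Its groups did not overlap (log2 fold change -2.55 ± 0.42 SE, edgeR adjusted p = 0.355, DESeq2 adjusted p = 4.35e-05). Over all settings tried, its adjusted p ranged from 4.38e-12 (edgeR with no filter on low counts) to 0.987 (without HLS replicate 3), and its log2 fold change from -3.21 to -2.14. In the other GCs GPX3 overlapped between the groups (0.37 to 1.11 in HLS and 0.35 to 0.95 in LLS). SERPINA14, a serpin, was at 0.035, 0 and 0.019 in HLS and at 0.34, 3.21 and 0.49 in LLS, so that most of its UMI came from LLS replicate 2. CGN, the tight junction protein cingulin, was at 0.0094 to 0.035 in HLS and at 0.14 to 0.23 in LLS. CGN had 4, 1 and 2 UMI in HLS replicates 1, 2 and 3 and 8, 44 and 12 in the LLS replicates, so that its HLS levels lay near the floor.

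DUT, which keeps uracil out of DNA, was at 1.28, 1.12 and 1.16 in HLS and at 0.40, 0.40 and 0.56 in LLS (log2 fold change 1.48 ± 0.27 SE, edgeR adjusted p = 0.355, DESeq2 adjusted p = 0.0316, and from 0.000748 to 0.987 over all settings). TAGLN was at 4.97, 5.12 and 5.28 in HLS and at 2.09, 2.65 and 1.70 in LLS (1.33 ± 0.26 SE, edgeR adjusted p = 0.515). Without the 12 OXT cells TAGLN came to 2.87 in LLS replicate 3 (1.08 ± 0.24 SE, edgeR adjusted p = 0.641). The perivascular markers moved with TAGLN, with sums of 1.32, 1.58 and 1.94 in HLS and 0.75, 0.94 and 0.46 in LLS. Among them ACTA2 was at 0.92, 1.2 and 1.06 against 0.23, 0.58 and 0.26. Without the 12 OXT cells the sum was 0.77 and ACTA2 0.45 in LLS replicate 3. The part of these markers in the TAGLN levels was not tested. SPON1, a matrix protein, was at 0.19 to 0.30 in HLS and at 0 to 0.062 in LLS. SPON1 had 23, 14 and 40 UMI in HLS replicates 1, 2 and 3 and 0, 13 and 4 in the LLS replicates, so that its LLS levels lay near the floor. These 6 genes separated all HLS from all LLS ewes, and were picked for their low p among all genes tested.

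**Figure D5:**
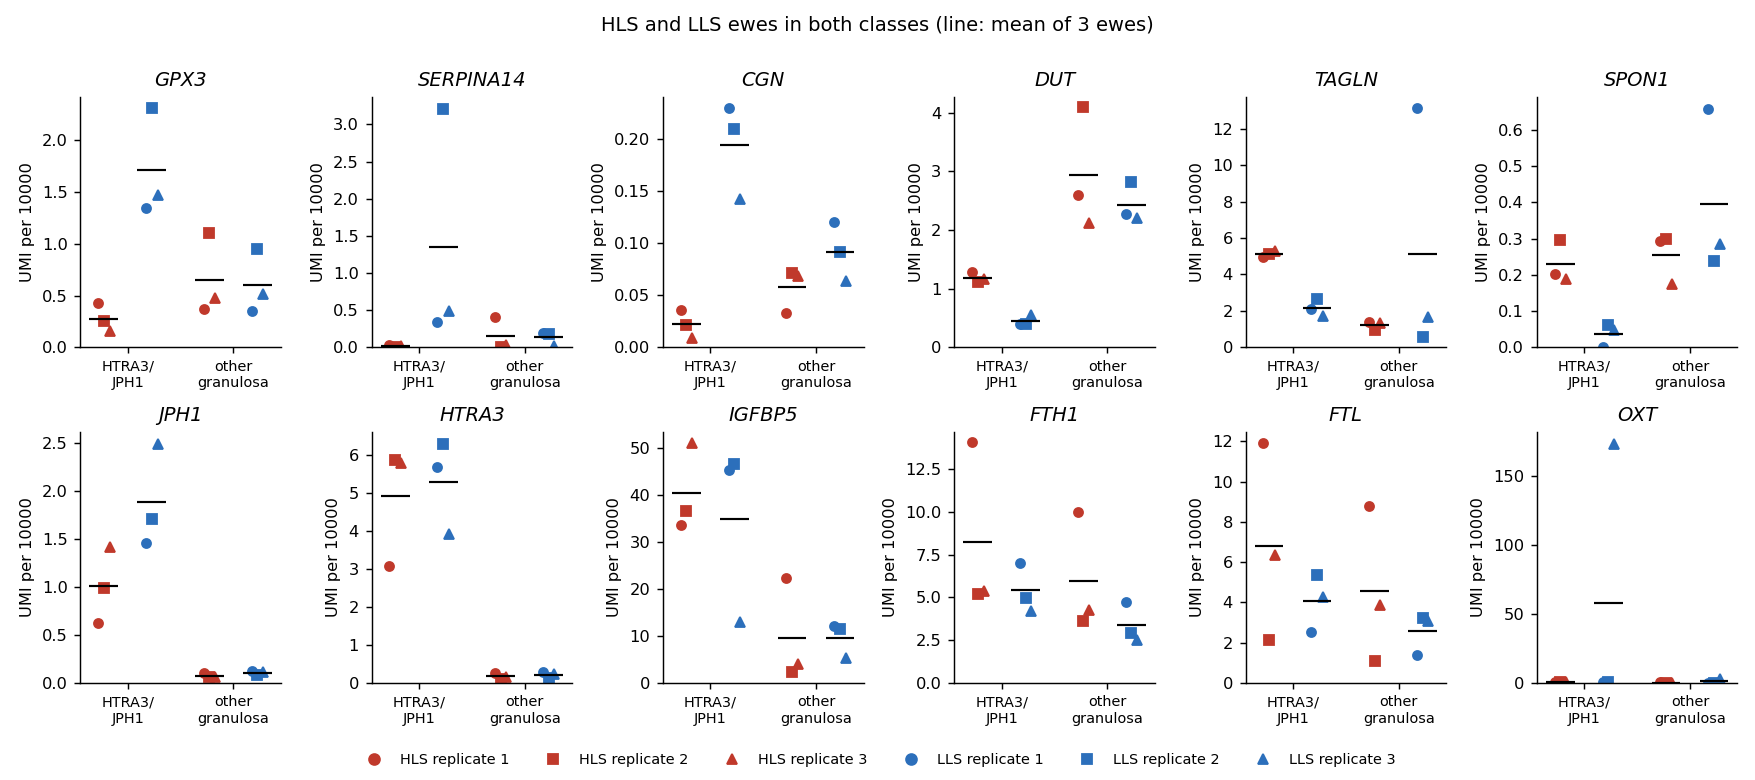
Level in UMI per 10000 of 12 genes in the kept cells and the other granulosa cells, 1 point per ewe (red HLS, blue LLS) and a line at the mean of 3 ewes. GPX3, SERPINA14, CGN, DUT, TAGLN and SPON1 separate the groups in the kept cells, while HTRA3, IGFBP5, FTH1, FTL and OXT overlap or rest on 1 ewe. JPH1 separates them too, but HTRA3 and JPH1 chose the cells, are shown without a test result and no group difference is read from them. No gene outside the rule passed the adjusted threshold in edgeR.

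For the 3 marker genes outside the rule the differences were smaller than their errors, with and without the 12 OXT cells. The log2 fold change of HLS over LLS was 0.29 ± 0.41 SE for IGFBP5 (0.16 ± 0.30 without them), -0.048 ± 0.27 for RUNX2 (-0.14 ± 0.23) and -0.22 ± 0.39 for PLIN2 (-0.21 ± 0.39), each with an edgeR adjusted p of 1.0. HTRA3 and JPH1 chose the cells, so that their levels are bounded by the rule and are given without a test result. JPH1 was at 0.63, 0.99 and 1.42 in HLS and at 1.46, 1.71 and 2.50 in LLS, with 1.79 in LLS replicate 3 without the 12 cells. Every LLS ewe lay above every HLS ewe for JPH1, with and without those cells, by the narrow margin of 1.46 against 1.42. The rule counts JPH1, so that no group difference is read from these values. HTRA3 was at 3.07, 5.86 and 5.79 in HLS and at 5.68, 6.29 and 3.92 in LLS, with 6.64 in LLS replicate 3 without them. FTH1 was at 14.1, 5.18 and 5.38 in HLS against 6.999, 4.98 and 4.22 in LLS, and FTL at 11.9, 2.11 and 6.36 against 2.52, 5.38 and 4.28. Both overlapped, and without HLS replicate 1 the log2 fold change of FTH1 was -0.025, against 0.77 ± 0.43 SE with it.

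By role, no list had a gene past the adjusted threshold in edgeR, while DESeq2 called GPX3 of the antioxidant list, TAGLN of the muscle-type list and SCARB1 of the steroid list. The median log2 fold change of all 8384 genes was -0.0070. For 9 tested genes of steroid synthesis it was -1.36 and for 4 luteal markers -2.47, but without the 12 OXT cells these medians were -0.21 and -0.25. OXT itself was at 173 in LLS replicate 3 and at 0.23 to 0.75 in the other 5 ewes (log2 fold change -6.86 ± 1.86 SE, adjusted p = 0.936, and -0.40 without the 12 cells). SCARB1, which takes up cholesterol from lipoproteins, was at 0.33, 0.23 and 0.27 in HLS and 0.77, 0.80 and 2.66 in LLS, and at 0.98 in LLS replicate 3 without those cells (edgeR adjusted p = 0.691, and 0.362 without them). The 5 tested genes induced by interferon had log2 fold changes below 0, with a median of -2.19, and none passed the test. LLS replicate 2 held the highest MX1 and IFI6, and without it the median of the 4 genes tested was -0.35 and MX1 turned to 3.88 ± 1.08 SE (adjusted p = 0.562). The muscle-type list holds 1 gene of the rule. The median was 0.22 for 12 genes of the BMP pathway (0.061 without the 12 cells), 0.32 for 15 muscle-type genes (0.25 without them) and -0.25 for 11 iron genes (-0.11 without them). For 15 glycolysis genes it was -0.21 and turned to 0.061 without them. FST, the activin-binding follistatin of the gate, was at 0.87, 1.69 and 1.47 in HLS and 0.52, 0.77 and 0.41 in LLS. FST is given without a test result since the gate counts it.

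Whether HLS and LLS differed otherwise in the kept cells than in the other GCs was tested as an interaction with the ewe as a block. None of 10597 genes passed an adjusted p of 0.05 (0%) in edgeR and 566 (5.34%) had an unadjusted p under 0.05, while DESeq2 called 4. The lowest p values among named genes were those of PTGER4, C1R and MICAL2 in one direction (log2 differences of 2.99 to 5.38) and of SERPINA14, GPX3 and CDH6 in the other (-5.96 to -1.85), with adjusted p values from 0.219 to 0.442. Leaving out 1 ewe moved the edgeR count to 2 genes without HLS replicate 1, 4 without LLS replicate 1 and 6 without LLS replicate 3.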

How the data were processed

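Whole ovaries of 6 Hu ewes were sequenced with a droplet 3′ single-cell assay. The authors made the deposited counts, unnormalized UMI per gene and barcode, with the Cell Ranger and STAR tools named in the submitters' processing notes, and the genome build is not given in the sources used here. Barcodes with under 1000 UMI or more than 10% mitochondrial UMI were left out here, and doublets stayed in (a caller on simulated doublets marked 17 of the 405 kept cells, and leaving these out was an alternative). The members and gene lists were chosen with earlier results of these data known.

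Counts were summed per ewe and class, with the ewe as the replicate. Levels are UMI per 10000. Log2 ratios of kept over other GCs used a pseudocount of 0.05, were taken per ewe and got no test. HLS and LLS were compared with edgeR 4.0.16 (R 4.3.3; TMM, filterByExpr, quasi-likelihood test, Benjamini-Hochberg adjustment over all genes tested) and with DESeq2 1.42.0 as an alternative. Shares were compared with an exact permutation test. P-values measure the spread between these ewes, and intervals or limits from counts cover counting error only. The tests were tried on simulated counts with known changes. Named genes were those of the rule, the markers and the lists, the 15 largest and 10 smallest median log2 ratios among genes of at least 0.5 per 10000 in the higher class with 1 direction in every ewe, and the lowest p values of each fit; 1 of these is not reported here. Groups came from the labels, and Python 3.11.15 did the remaining steps. Cell types, clusters and integrated values of the study were not used here.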

Additional observations from a re-analysis of the deposited data

Results flagged for a closer look

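Among 268 named genes measured in both classes and outside the rule, 6 (2.24%) had log2 ratios of kept over other GCs on opposite sides of 0 in all HLS and all LLS ewes. Over all 8478 genes measured, 121 (1.43%) did. The HLS mean minus the LLS mean of these ratios was 0.40 for PRDX1, 0.31 for SMAD5, 2.04 for PTGER4, -1.12 for SCARB1, 0.29 for TJP1 and -3.42 for SERPINA14. None passed the edgeR interaction test, with adjusted p values of 0.949, 0.975, 0.266, 0.723, 0.975 and 0.219 in the same order. Without the 12 OXT cells the split no longer held for PRDX1, SCARB1 and TJP1, whose differences were 0.30, -0.67 and 0.20, and held for SMAD5 (0.38), PTGER4 (2.06) and SERPINA14 (-3.58). SERPINA14 had 4, 0 and 4 UMI in the HLS kept cells and 12, 675 and 41 in the LLS kept cells, so that its HLS ratios depend on the pseudocount of 0.05 and its split cannot be read. PTGER4 had 12, 10 and 23 UMI in the HLS kept cells and 0, 21 and 2 in the LLS kept cells. Its ratios in LLS replicates 1 and 3 depend on the pseudocount too, so that the PTGER4 split cannot be read either.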

How the results depend on the processing

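The difference in the share of kept cells (-2.92 percentage points, HLS minus LLS) ranged from -9.23 to 3.09 when 1 ewe was left out, and turned without HLS replicate 2 (2.82) and without LLS replicate 2 (3.09). Every other setting kept its direction, between -8.59 and -1.63. The HLS against LLS count in kept cells was 0 in edgeR, 6 in DESeq2 and 188 with no filter on low counts, and 0 without any 1 ewe. The count of the difference between classes was 0 in edgeR, 4 in DESeq2, 132 with no filter, 2 at a minimum of 2 UMI, 2 without the 12 OXT cells (chosen after seeing the data) and 0 to 6 without 1 ewe. The causes were not tested. With cells thinned to 3000 UMI, 737 genes were higher and 544 lower in every ewe, against 1458 and 842. Log2 fold changes of HLS over LLS near 0 turned with 1 ewe left out: HTRA3 ranged from -0.23 to 0.13 (0.12 without LLS replicate 2), IGFBP5 from -0.11 (without LLS replicate 3) to 0.59, RUNX2 from -0.26 to 0.18 and PLIN2 from -0.59 to 0.064 (both highest without LLS replicate 1), and FTH1 from -0.025 (without HLS replicate 1) to 1.04. HTRA3 also turned to 0.020 at a minimum of 5 UMI, and RUNX2 to 0.043 with sums thinned to the smallest sum. HTRA3 chose the cells, so that its fold changes are bounded by the rule and are given without a test result. Neither stability nor a difference between the groups is read from the HTRA3 values. Of the log2 ratios of 28 named genes, 336 of 336 values kept their direction and 2 moved in size. These genes had 1 direction in every ewe, so that leaving out 1 ewe could not turn their median. No stability is read from this count.

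Same-numbered HLS and LLS ewes did not deviate together (correlations of -0.067, -0.087 and -0.029), so the numbers are taken as names. With the replicate block the share difference was -2.92 (exact sign-flip test, p = 1.0) and edgeR called 0 genes. Depth limits genes of low level most in LLS replicate 1, with 25 kept cells. Thinning every cell before the rule left 12 kept cells.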

Other observations

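HTRA3 and JPH1 were not limited to the gated cells. Outside the GC gate, 1386 of 36439 barcodes (3.80%) held at least 3 UMI of both genes together, with 7753 HTRA3 and 916 JPH1 UMI in all. Of these barcodes, 842 (60.8%) had PDGFRA, a stromal receptor, as the leading gate gene of another cell type, 143 (10.3%) had PECAM1 and KDR of endothelium and 110 (7.94%) had INSL3 of theca cells. No gate gene of another cell type led in 205 (14.8%), and 73 (5.27%) had a tie. None of the 4 GC gate genes had a UMI in 782 of the 1386 barcodes. The share was 3.92%, 4.01% and 4.48% in HLS replicates 1, 2 and 3 and 1.72%, 5.18% and 3.94% in LLS replicates 1, 2 and 3, so that LLS replicate 1 was the lowest.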
